A study of Mus musculus with 12 samples.

Results

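The combination of a CD40-activating antibody with a CSF1 receptor inhibitor was set against Control treatment in 6 RNA-seq libraries of mouse melanoma, 3 per group, out of 12 libraries in the series. The 6 were taken by their sample titles, and all genes that passed a low-count filter were compared. Combination mice (CD40 agonist + CSF1Ri) received the antibody FGK4.5 by intraperitoneal injection at 10 mg/kg every 3 days, for up to 10 doses, and ate chow with PLX6134, read here as the CSF1 receptor inhibitor that the group names call CSF1Ri, at 600 mg per kg of chow. The CD40 agonist and CSF1Ri groups, with 3 libraries each, had a single agent, and Control mice had neither. The labels' protocols name PBS as the vehicle of the antibody and normal chow as the alternative diet. Treatment started 30 days after local tumor induction, with total tumor volume under 100 mm3, and ran for 30 days or until the 2 cm3 endpoint. All mice, Control included, carried the Tyr::CreER transgene, an inducible Cre recombinase under the pigment cell promoter of tyrosinase, and the further alleles of the model are not reported here. A separate genotype field reads wild type, and mice were age-matched with no age stated.

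Each library came from a pool of at least 3 tumors. The labels call the cells tumor associated macrophages, but how these cells were separated from the tumor is not stated beyond digestion, lysis of red cells and removal of dead cells, so the libraries are described as bulk preparations. In such data fewer cells of a type and less RNA per cell cannot be told apart. Whether the pools of a group differ in day or litter is not stated, and p-values therefore measure only how much these pools varied. Libraries were sequenced 6 to a lane, and the sample labels used here do not name which libraries shared a lane.

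CD40 is a receptor of the TNF receptor superfamily on macrophages, dendritic cells and B cells. When it is engaged, TRAF adaptors activate NF-kB and MAP kinases, and target genes include cytokines, co-stimulatory ligands and the pathway's own inhibitors. CSF1R is the receptor tyrosine kinase through which CSF1 and IL-34 sustain monocytes and macrophages, and non-classical (patrolling) monocytes are known to depend on it. Macrophages under CSF1R blockade and CD40 activation have been studied as a source of inflammatory cytokines in tumors.

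In the combination, genes of the inflammatory response stood higher than in Control: the cytokines Tnf, Osm and Il6, the chemokines Ccl3 and Ccl4, the NF-kB inhibitors Tnfaip3 and Nfkbia, and AP-1 family transcription factors. Genes of patrolling monocytes stood lower, among them Ace, Cd300e, S1pr5, Pou2f2 and Cx3cr1. Of 16027 genes tested, 124 (0.774%) were called at an adjusted p below 0.05, with 74 (0.462%) higher and 50 (0.312%) lower (edgeR quasi-likelihood test with Benjamini-Hochberg adjustment, fitted on all 12 libraries). The values of the 3 combination and 3 Control libraries did not overlap for any of these 124 genes. Across all genes tested the 2 groups did not overlap for 22.3%, with combination values all above Control for 10.8% and all below for 11.5%.

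The number of calls depended on the Control libraries and on the tool. Leaving out Control replicate 1 or 3 left 0 calls, and leaving out Control replicate 2 left 1, Stk10 (adjusted p = 0.0337). In those 3 fits the adjusted p of the 124 genes ran between 0.0337 and 0.211, and no unadjusted p exceeded 0.00282. Every gene called below is subject to this. Leaving out any of the 9 other libraries left 49 to 154 calls, and 26 of the 124 genes stayed called in all 9 of these fits. A fit on the 6 libraries alone called 5 genes (Cfp, Ccl4, Atf3, Ppp1r15a and Osm), and DESeq2 called 1099, which included all 124. None of the 124 changed direction in any alternative tried.

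**Figure D1:**
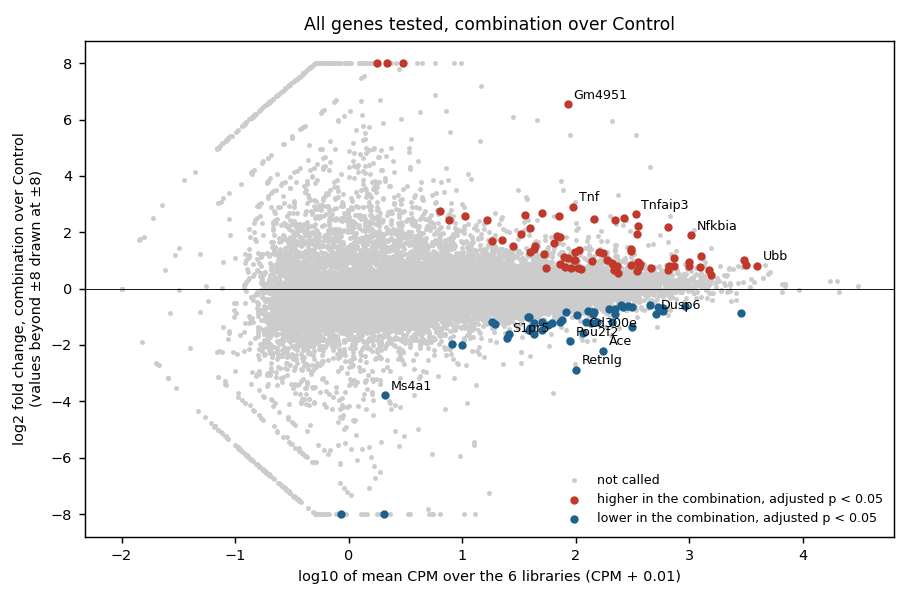
Each point is 1 of the 16027 genes tested, with the log10 of its mean CPM (counts scaled to a common library size of 1e+06) over the 6 libraries across and its log2 fold change, combination over Control, upwards. The 74 genes called higher (red) and the 50 called lower (blue) lie among many uncalled genes with changes as large, most of them at low CPM.

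Total estimated counts ran between 34168389 and 39818657 in the combination libraries and between 28709482 and 31698533 in the Control libraries. Library correlations of log2 CPM were 0.899 to 0.934 within groups and 0.891 to 0.903 between groups. On the second principal component of all 12 libraries, which held 12.8% of the variance, the combination libraries lay at 32.5, 106 and 55.6 and the Control libraries at -38.7, -49.3 and -51.9, so replicate 2 of the combination stood apart from its group. The first component held 18.6%. On it the combination libraries lay at -72, 9.84 and -59.2 and the Control libraries at 14.5, 12.5 and 0.233. Combination replicate 2 thus lay among the Control libraries on that component. Pan-macrophage transcripts were abundant in both groups. The 12 macrophage markers summed to 14818, 35405 and 18168 CPM in the combination and to 18546, 20824 and 17369 CPM in Control, with none called, none at an unadjusted p below 0.05 and none called by DESeq2. Lyz2, the lysozyme of all myeloid cells, made up most of these sums, at a mean of 19041 CPM in the combination and 15680 CPM in Control. Markers of mature tissue macrophages were low but present: Mertk, an efferocytosis receptor, averaged 7.50 CPM in the combination and 6.6 CPM in Control, and the complement gene C1qa averaged 35.7 CPM in the combination and 16.2 CPM in Control. Cd68, a lysosomal glycoprotein of macrophages, had 521, 718 and 541 CPM in the combination against 690, 661 and 656 CPM in Control, and the groups overlapped.

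The targets of the agents were not called. Csf1r had 615, 1208 and 692 CPM in the combination and 876, 843 and 857 CPM in Control, with a log2 fold change of -0.03 ± 0.21 (SE, edgeR adjusted p = 0.965). Cd40 had 303, 189 and 239 CPM in the combination and 140, 98.1 and 151 CPM in Control, a log2 fold change of 0.91 ± 0.26 (SE, adjusted p = 0.153). All 3 combination values of Cd40 lay above all 3 Control values, while the Csf1r groups overlapped because of combination replicate 2. Csf1, the ligand of CSF1R, had 65.8, 62.0 and 97.0 CPM in the combination and 23.4, 41.3 and 27.4 CPM in Control (log2 fold change 1.29 ± 0.31, SE; adjusted p = 0.0827), again without overlap. Cd40lg, which encodes the CD40 ligand, and Il34, the second CSF1R ligand, were too low to be tested. Neither agent deletes its target gene, so these levels do not check the labels. Of 13 tested genes of the CSF receptors, their ligands and the CD40 pair, 0 were called by edgeR, 2 had an unadjusted p below 0.05 and 2 were called by DESeq2.

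Cytokine transcripts were among the larger increases. Tnf, which encodes the central inflammatory cytokine TNF, had 142, 266 and 96.3 CPM in the combination libraries and 24.7, 20.5 and 21.7 CPM in the Control libraries. Its log2 fold change was 2.91 ± 0.39 (SE, edgeR adjusted p = 0.0156), and the lowest combination library stood well above the highest Control library. Osm, an IL-6 family cytokine made by activated myeloid cells, had 412, 354 and 362 CPM in the combination and 59.1, 75.8 and 74.0 CPM in Control (2.43 ± 0.40, adjusted p = 0.0257). Il6, the inducer of the acute-phase response, had 55.9, 57.3 and 42.5 CPM in the combination and 10.1, 19.3 and 10.9 CPM in Control (1.95 ± 0.32, adjusted p = 0.0244). Tnf stayed called in 9, Il6 in 8 and Osm in 6 of the 12 fits that each left out 1 library. Ifng, the interferon of T and NK cells, had 14.6, 16.0 and 12.4 CPM in the combination and 4.47, 2.85 and 3.05 CPM in Control, without overlap, and missed the threshold (2.05 ± 0.42, adjusted p = 0.0538). Of the 25 inflammatory cytokines and growth factors tested, 3 were called, all higher, and 21 had a positive fold change. Their median log2 fold change was 1.40, against 0.00 over all genes, and 0.82 without combination replicate 2.

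Among chemokine transcripts, Ccl3 and Ccl4, which attract monocytes and T cells, were higher as well. Ccl4 had 1358, 996 and 863 CPM in the combination and 225, 225 and 248 CPM in Control (log2 fold change 2.20 ± 0.40, SE; edgeR adjusted p = 0.0367). Ccl3 had 694, 461 and 504 CPM in the combination and 114, 174 and 145 CPM in Control (1.94 ± 0.33, adjusted p = 0.0304). The groups were far apart for both genes, which stayed called in 3 (Ccl4) and 5 (Ccl3) of the 12 leave-out fits. These were the 2 called among 25 chemokines (8.0%, against 0.774% of all genes tested), of which 18 had a positive fold change, with a median of 0.87. Ccl2, the ligand that draws CCR2-bearing monocytes, had 208, 222 and 173 CPM in the combination and 45.9, 67.5 and 55.2 CPM in Control (1.84 ± 0.49, adjusted p = 0.121). Cxcl10, an interferon-induced ligand of CXCR3, had 37.4, 172 and 44.8 CPM in the combination and 23.9, 25.5 and 19.9 CPM in Control (1.88 ± 0.57, adjusted p = 0.165), with most of the difference in combination replicate 2. Among 22 chemoattractant receptors, 2 (9.09%) were called and both were lower, Cx3cr1 and S1pr5, which are described with the patrolling genes.

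Among NF-kB genes the inhibitors Tnfaip3 and Nfkbia and the nuclear IkB gene Nfkbiz rose, while the subunit gene Nfkb1 fell. Tnfaip3 encodes A20, a ubiquitin-editing enzyme that restrains NF-kB signalling, and had 570, 734 and 439 CPM in the combination against 95.7, 64.6 and 118 CPM in Control (log2 fold change 2.65 ± 0.34, SE; edgeR adjusted p = 0.0145). Nfkbia encodes the inhibitor IkBa, which holds NF-kB in the cytoplasm, and had 1824, 1957 and 1129 CPM in the combination against 453, 445 and 413 CPM in Control (1.91 ± 0.29, adjusted p = 0.0196). Nfkbiz, the nuclear IkB protein that takes part in Il6 induction, had 505, 522 and 297 CPM in the combination against 187, 156 and 156 CPM in Control (1.41 ± 0.26, adjusted p = 0.0390). Nfkb1, which encodes p105 and its product p50, had 202, 181 and 227 CPM in the combination against 320, 316 and 318 CPM in Control (-0.65 ± 0.12, adjusted p = 0.0362). Tnfaip3 and Nfkbia stayed called in 9 of the 12 leave-out fits, Nfkbiz in 3 and Nfkb1 in 2. Of 30 NF-kB subunits, kinases and inhibitors, 3 were called higher and 1 lower (13.3% called, against 0.774% of all genes tested). Of the 30, 8 had negative fold changes, and the median was 0.17, against 0.00 over all genes.

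Promoter sequences of 5 of the genes called higher are shown because they carry letters that NF-kB, AP-1, CREB/ATF or interferon-regulated factors are known to read. They run from 250 bases before to 50 after a RefSeq start site in GRCm38.p6, 5′ to 3′ on the gene's strand. Capitals mark every match, on either strand, to GGG and TTCC with any 3 bases between them (NF-kB), TGANTCA (AP-1), TGACGTCA (the cAMP response element, CRE) or GAAA and GAAA with any 2 bases between them (the core of the interferon-stimulated response element, ISRE). Tnfaip3 lies on chr10:19015361-19015660 (minus strand, 1 of 2 listed promoters), Nfkbia on chr12:55492598-55492897 (minus), Il6 on chr5:30012864-30013163 (plus), Ppp1r15a on chr7:45526219-45526518 (minus) and Gbp2b on chr3:142594597-142594896 (plus).
Tnfaip3: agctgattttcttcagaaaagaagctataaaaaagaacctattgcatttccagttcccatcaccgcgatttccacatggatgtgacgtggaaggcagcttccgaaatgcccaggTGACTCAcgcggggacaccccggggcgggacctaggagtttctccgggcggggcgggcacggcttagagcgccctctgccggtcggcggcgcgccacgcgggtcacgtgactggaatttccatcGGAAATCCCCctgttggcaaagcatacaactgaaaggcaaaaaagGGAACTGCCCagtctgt
Nfkbia: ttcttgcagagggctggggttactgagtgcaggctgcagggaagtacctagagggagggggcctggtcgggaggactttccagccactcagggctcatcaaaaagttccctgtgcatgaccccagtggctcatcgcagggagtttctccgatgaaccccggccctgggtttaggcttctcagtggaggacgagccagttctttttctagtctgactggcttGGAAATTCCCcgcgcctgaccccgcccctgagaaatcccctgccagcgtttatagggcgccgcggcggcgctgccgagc
Il6: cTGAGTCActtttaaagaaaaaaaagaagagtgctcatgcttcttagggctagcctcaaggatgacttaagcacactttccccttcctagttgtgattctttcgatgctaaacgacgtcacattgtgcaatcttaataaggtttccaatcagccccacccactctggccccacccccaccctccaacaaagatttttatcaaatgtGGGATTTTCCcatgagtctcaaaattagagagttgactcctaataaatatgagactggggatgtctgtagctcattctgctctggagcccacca
Ppp1r15a: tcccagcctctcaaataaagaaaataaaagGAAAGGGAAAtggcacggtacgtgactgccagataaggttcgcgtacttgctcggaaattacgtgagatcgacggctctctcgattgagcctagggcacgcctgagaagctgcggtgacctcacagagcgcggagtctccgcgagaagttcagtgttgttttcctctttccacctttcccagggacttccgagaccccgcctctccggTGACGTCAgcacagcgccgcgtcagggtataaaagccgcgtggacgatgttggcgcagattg
Gbp2b: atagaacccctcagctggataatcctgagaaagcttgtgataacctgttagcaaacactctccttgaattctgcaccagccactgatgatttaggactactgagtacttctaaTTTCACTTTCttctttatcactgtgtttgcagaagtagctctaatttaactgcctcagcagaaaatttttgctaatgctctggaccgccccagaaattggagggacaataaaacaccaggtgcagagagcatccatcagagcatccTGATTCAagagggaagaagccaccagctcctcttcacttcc

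The NF-kB letters occurred at 2 places in the Tnfaip3 window and at 1 place each in the Nfkbia and Il6 windows. AP-1 letters, with any base in the middle, were present at 1 place in Tnfaip3, Il6 and Gbp2b. The AP-1 consensus has C or G in the middle, and the Gbp2b match has T, so it is a looser match. The CRE was present at 1 place in Ppp1r15a, and the ISRE core at 1 place in Ppp1r15a and Gbp2b. A RefSeq promoter was listed for 57 of the 74 genes called higher and 39 of the 50 called lower. The NF-kB letters were in 15.8% of these higher genes and 5.13% of the lower genes, against 7.01% of the 11455 tested genes with a promoter and 5.56% of all 32851 listed promoters. For AP-1, with any middle base counted, the shares were 10.5% and 2.56%, against 7.04% and 7.81%. The CRE was in 8.77% of the higher genes and 0 of the lower genes, against 3.18% and 1.79%, and the ISRE core in 5.26% and 0, against 4.06% and 3.44%. The letters TTCNNNGAA (the GAS element read by STAT factors) were in 3.51% of the higher and 12.8% of the lower genes, against 8.60% and 8.30%. The listed promoters of Tnf, Atf3, Ccl3, Fos, Fosb, Jun, Junb and Pim1, all called higher, matched none of these motifs. The motifs were chosen after the calls were known, the counts are small, and a match describes letters, not binding.

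Immediate early transcription factors, which are induced within minutes of a signal, were the list with the most calls. Atf3, a CREB/ATF family factor of the stress response, had 527, 447 and 377 CPM in the combination and 80.0, 88.8 and 71.0 CPM in Control (log2 fold change 2.49 ± 0.26, SE; edgeR adjusted p = 0.0142). The AP-1 subunit Junb had 264, 222 and 197 CPM in the combination and 85.9, 102 and 90.7 CPM in Control (1.29 ± 0.16, adjusted p = 0.0145). Jun had 138, 128 and 121 CPM in the combination and 65.1, 73.0 and 54.0 CPM in Control (1.01 ± 0.14, adjusted p = 0.0194). Libraries within a group lay close together for these 3 genes. The partner subunits Fos and Fosb (1.15 ± 0.21 and 1.37 ± 0.25, adjusted p = 0.0378 and 0.0367) and the zinc-finger factor Klf6 (0.81 ± 0.12, adjusted p = 0.0196) were also called higher. Klf4, a zinc-finger factor of the monocyte lineage, went the other way, with 95.7, 99.2 and 86.4 CPM in the combination and 161, 159 and 164 CPM in Control (-0.78 ± 0.12, adjusted p = 0.0196). Atf3, Junb, Jun and Klf6 stayed called in 9 of the 12 leave-out fits, Klf4 in 8, and Fos and Fosb in 2. Of 28 members 6 were called higher and 1 lower, 19 had positive fold changes, and the median was 0.57. Heat shock and chaperone genes, which like immediate early genes also respond to tissue digestion, leaned the same way. Of 18 tested, 13 had positive fold changes, 0 were called by edgeR, 8 had an unadjusted p below 0.05 and 3 were called by DESeq2, with a median of 0.38 (0.18 without combination replicate 2), and the part of tissue handling was not tested.

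Among 30 feedback phosphatases, RNA-decay factors and SOCS proteins, 3 were called higher and 1 lower (13.3% called, against 0.774% of all genes tested), with a median of 0.30. Ppp1r15a, which encodes GADD34, the phosphatase subunit that reverses eIF2a phosphorylation, had 563, 669 and 526 CPM in the combination and 121, 120 and 133 CPM in Control (log2 fold change 2.23 ± 0.33, SE; edgeR adjusted p = 0.0196). Gadd45g, a stress-induced activator of MAP kinase signalling, and Pim1, a serine/threonine kinase downstream of cytokine receptors, were higher by 1.50 ± 0.26 and 1.10 ± 0.17 (adjusted p = 0.0337 and 0.0196). Dusp6, the phosphatase that switches off ERK, had 307, 404 and 345 CPM in the combination and 651, 652 and 678 CPM in Control (-0.91 ± 0.11, adjusted p = 0.0142). The Dusp6 groups were separated by a wide gap, and its call, like those of Ppp1r15a and Pim1, stayed in 9 of the 12 leave-out fits. The call of Gadd45g stayed in 4.

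**Figure D2:**
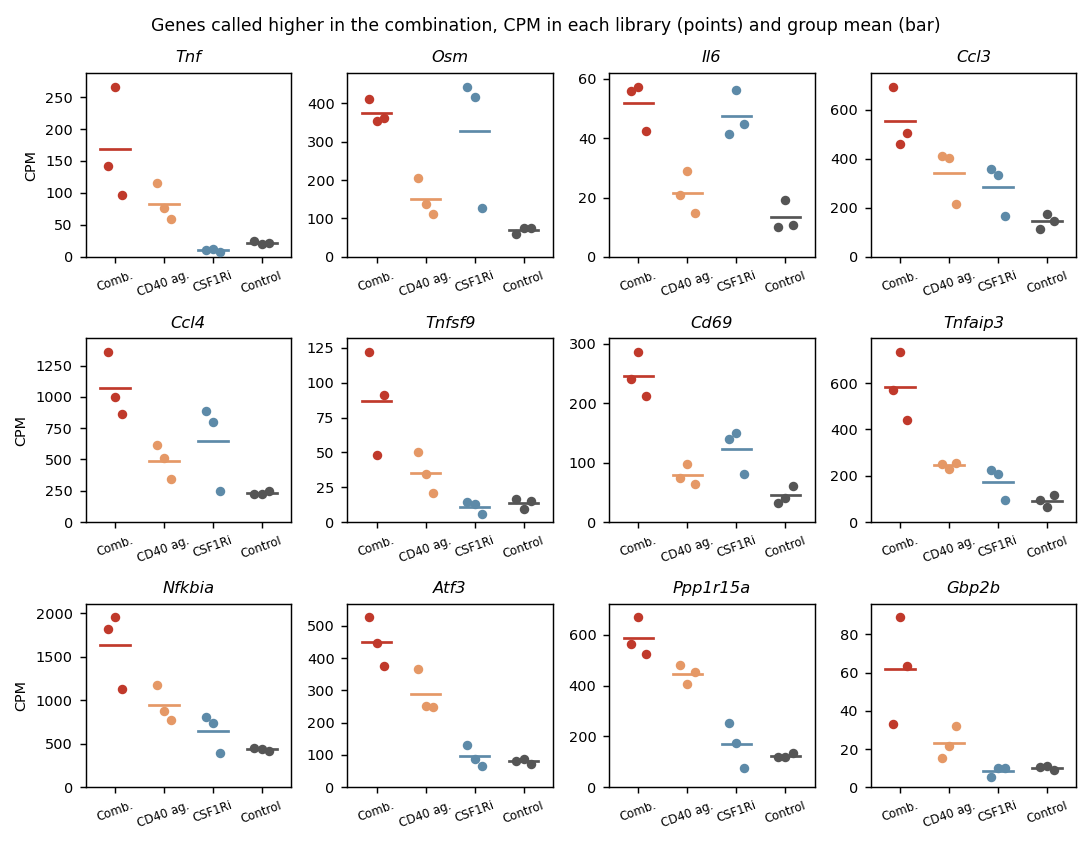
CPM (vertical axis, from 0) of 12 genes called higher in the combination, with 1 point per library and a bar at the group mean, for the combination, CD40 agonist, CSF1Ri and Control groups. In each panel the 3 combination points lie above the 3 Control points, while the single-agent groups differ by gene: Tnf averaged 83.5 CPM under the CD40 agonist and 10.2 CPM under CSF1Ri, and Osm 151 CPM under the CD40 agonist and 329 CPM under CSF1Ri.

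Surface ligands and activation markers gave calls in both directions, in 2 lists that each held a larger share of calls than the 0.774% of all genes tested. Tnfsf9, which encodes 4-1BBL, the co-stimulatory ligand of 4-1BB on T cells, had 122, 48.3 and 91.3 CPM in the combination and 16.3, 9.27 and 15.3 CPM in Control (log2 fold change 2.68 ± 0.48, SE; edgeR adjusted p = 0.0362). With Tnf it made up the 2 calls among 29 TNF superfamily ligands and receptors, whose median was 0.00. Cd69, an early activation receptor that retains leukocytes in tissue, had 241, 286 and 212 CPM in the combination and 32.8, 40.5 and 61.3 CPM in Control (2.46 ± 0.29, adjusted p = 0.0142). Every combination library held more Cd69 than any Control library. In the list of 25 co-stimulation, checkpoint and activation molecules Cd69 was called higher and the myeloid receptors Cd300a and Cd300e were called lower. Cd69 stayed called in 9 of the 12 leave-out fits, and Tnfsf9 and Cd300a in 4. Cd80, a ligand of CD28, had 22.7, 29.5 and 25.2 CPM in the combination and 15.3, 16.8 and 13.3 CPM in Control, without overlap (0.77 ± 0.22, adjusted p = 0.150).

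Interferon-inducible GTPases, which attack the vacuoles of intracellular pathogens, were mostly higher and varied widely among the combination libraries. The list summed to 2092, 10653 and 2985 CPM in the combination and to 1818, 1590 and 1919 CPM in Control. Gm4951, annotated in mouse as a member of this family, had 46.5, 379 and 78.2 CPM in the combination and 1.46, 0.791 and 3.11 CPM in Control (log2 fold change 6.55 ± 1.16, SE; edgeR adjusted p = 0.0362). Gbp2b, a guanylate-binding protein, had 32.9, 89.0 and 63.5 CPM in the combination and 10.5, 11.1 and 8.81 CPM in Control (2.61 ± 0.41, adjusted p = 0.0216). For both genes combination replicate 2 was the highest library, and without it the log2 fold change of Gm4951 was 5.12 ± 1.01 and no longer called (adjusted p = 0.052), while Gbp2b kept its call (2.25 ± 0.40, adjusted p = 0.0344). Without CSF1Ri replicate 3 as well, Gm4951 was called (5.12 ± 0.60, adjusted p = 0.00837). Gm4951 stayed called in 2 and Gbp2b in 8 of the 12 leave-out fits. Iigp1 had 112, 1667 and 198 CPM in the combination and 23.2, 10.4 and 11.0 CPM in Control (5.47 ± 1.24, adjusted p = 0.0733). Of 21 members 2 were called (9.52%, against 0.774% of all genes tested) and 20 had positive fold changes. The median was 1.72, and 0.98 without combination replicate 2. Genes of these families share near-identical copies, so the split of reads between them is uncertain.

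Type I interferon stimulated genes did not move in 1 direction. Of 31 tested, 0 were called by edgeR, 5 had an unadjusted p below 0.05 and 2 were called by DESeq2. The median was 0.17, but -0.34 without combination replicate 2 and -0.14 when TPM replaced counts. Rsad2, the antiviral enzyme viperin, had 4.27, 10.9 and 19.6 CPM in the combination and 57.7, 55.5 and 50.2 CPM in Control (-2.23 ± 0.53, adjusted p = 0.0834), with no overlap. Of 19 IRF and STAT factors 0 were called by edgeR, 4 had an unadjusted p below 0.05, and DESeq2 called 3.

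MHC class I genes had small positive fold changes throughout. H2-K1, a classical class I heavy chain, had 1837, 2086 and 1560 CPM in the combination and 1124, 1125 and 1214 CPM in Control (log2 fold change 0.66 ± 0.11, SE; edgeR adjusted p = 0.0258). H2-T22, a non-classical class I gene, had 220, 342 and 200 CPM in the combination and 143, 109 and 121 CPM in Control (1.03 ± 0.19, adjusted p = 0.0367). These were the 2 called of 20 (10.0%, against 0.774% of all genes tested), and all 20 had positive fold changes. In 17 every combination value lay above every Control value, against 10.8% of all genes tested. The median was 0.65, and 0.43 without combination replicate 2. H2-K1 stayed called in 6 and H2-T22 in 3 of the 12 leave-out fits. B2m, the shared light chain, had 5909, 6609 and 4958 CPM in the combination and 4248, 4014 and 4074 CPM in Control (0.50 ± 0.11, adjusted p = 0.0701). All 12 MHC class II genes had positive fold changes with a median of 0.46, and 0 were called by edgeR, 5 had an unadjusted p below 0.05 and DESeq2 called 2. H2-Aa, a class II alpha chain, had 7114, 5423 and 6119 CPM in the combination and 4312, 3811 and 4205 CPM in Control (0.60 ± 0.20, adjusted p = 0.192), without overlap.

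Glycolysis and hypoxia genes gave 5 calls among 29 (17.2%, against 0.774% of all genes tested), all higher. Of the 29, 26 had positive fold changes, and the median was 0.55. Ldha, which turns pyruvate into lactate, had 821, 839 and 850 CPM in the combination and 483, 449 and 507 CPM in Control (log2 fold change 0.80 ± 0.13, SE; edgeR adjusted p = 0.0222). Both groups were tight and clearly apart. The glycolytic enzymes Aldoa, Gapdh and Pgk1 were higher by 0.77 ± 0.14, 0.77 ± 0.13 and 0.83 ± 0.16 (adjusted p = 0.0362, 0.0257 and 0.0402), and the fifth was Mif, a cytokine that hypoxia induces (0.89 ± 0.16, adjusted p = 0.0367). Ldha stayed called in 8 of the 12 leave-out fits, Gapdh in 6, Aldoa in 4, Mif in 2 and Pgk1 in 1. In the list of 20 arginine, tryptophan, itaconate and prostaglandin genes the called member was Ptgir, the prostacyclin receptor, at 54.5, 50.5 and 38.9 CPM in the combination and 82.1, 123 and 109 CPM in Control (-1.13 ± 0.18, adjusted p = 0.0228).

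Genes of patrolling monocytes, the CX3CR1-high cells that survey vessel walls, were lower as a list: 6 of 30 were called, all lower, 29 had negative fold changes, and the median was -0.86. In 19 of the 30 every combination value lay below every Control value, against 11.5% of all genes tested. Ace, the angiotensin-converting enzyme, had 84.1, 33.0 and 69.8 CPM in the combination and 289, 286 and 289 CPM in Control (log2 fold change -2.21 ± 0.32, SE; edgeR adjusted p = 0.0196). Cd300e, an activating receptor of monocytes, had 54.2, 47.1 and 73.2 CPM in the combination and 186, 156 and 172 CPM in Control (-1.56 ± 0.25, adjusted p = 0.0256). Pou2f2, which encodes the transcription factor OCT2, had 50.4, 35.6 and 29.3 CPM in the combination and 134, 169 and 117 CPM in Control (-1.87 ± 0.26, adjusted p = 0.0173). In each of these genes even the highest combination library was far below the lowest Control library. S1pr5, a sphingosine-1-phosphate receptor needed for patrolling monocytes to leave the bone marrow, had 16.2, 7.86 and 10.0 CPM in the combination and 38.5, 35.8 and 40.1 CPM in Control (-1.75 ± 0.30, adjusted p = 0.0318). Bcl2, an inhibitor of apoptosis, had 25, 22 and 32.2 CPM in the combination and 92.7, 70.9 and 57.4 CPM in Control (-1.48 ± 0.29, adjusted p = 0.0455). Cx3cr1, the fractalkine receptor, had 146, 196 and 158 CPM in the combination and 273, 247 and 296 CPM in Control (-0.71 ± 0.14, adjusted p = 0.0454). Ace and Pou2f2 stayed called in 9 of the 12 leave-out fits, Cd300e and S1pr5 in 5, Cx3cr1 in 2 and Bcl2 in 1. The list median was -0.83 without combination replicate 2.

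**Figure D3:**
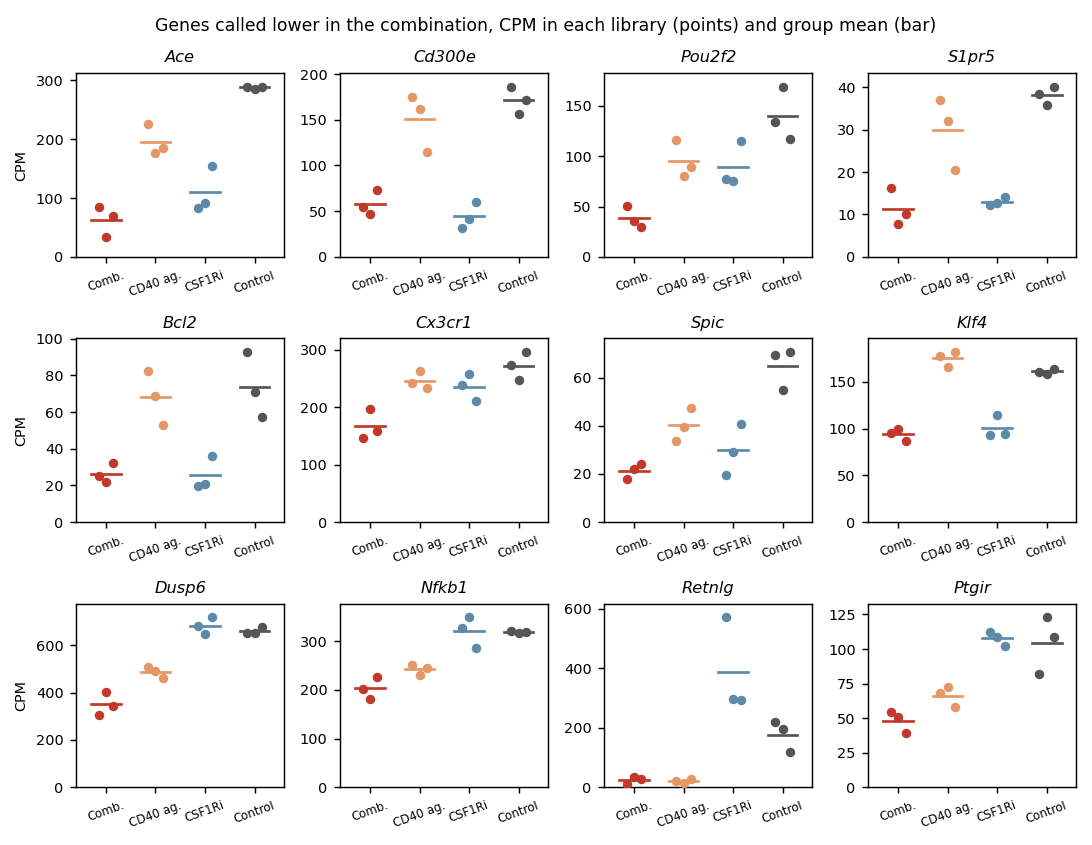
CPM (vertical axis, from 0) of 12 genes called lower in the combination, with 1 point per library and a bar at the group mean, for the combination, CD40 agonist, CSF1Ri and Control groups. The 3 combination points lie below the 3 Control points in every panel. Cd300e averaged 151 CPM under the CD40 agonist and 44.2 CPM under CSF1Ri, and Retnlg 20.4 CPM under the CD40 agonist and 387 CPM under CSF1Ri.

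Genes of classical monocytes, the LY6C-high cells from which many tissue macrophages arise, leaned the other way without calls: of 20 tested, 18 had positive fold changes, 0 were called by edgeR, 8 had an unadjusted p below 0.05 and DESeq2 called 5. Ly6c2, their defining surface marker, had 361, 2528 and 560 CPM in the combination and 184, 227 and 172 CPM in Control (log2 fold change 2.57 ± 0.60, SE; edgeR adjusted p = 0.0800). The median was 0.59 with combination replicate 2 and 0.29 without it. Among 31 macrophage identity genes the called member was Spic, the transcription factor of iron-recycling macrophages, at 18, 22.1 and 24.0 CPM in the combination and 69.5, 54.8 and 70.6 CPM in Control (-1.60 ± 0.27, adjusted p = 0.0257). The list as a whole had a median of -0.09, which turned to 0.05 without combination replicate 2 and was -0.39 when TPM replaced counts.

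Several further regulators and receptors were among the 20 largest falls. The transcription factors Bcl6, Mef2c and Tcf7l2 changed by -1.38 ± 0.21, -1.24 ± 0.19 and -1.23 ± 0.15 (log2, SE; edgeR adjusted p = 0.0196, 0.0196 and 0.0142). Fkbp5, a glucocorticoid-induced chaperone of the glucocorticoid receptor, had 12.1, 12 and 10.1 CPM in the combination and 27.9, 27.8 and 25.9 CPM in Control (-1.26 ± 0.23, adjusted p = 0.0362). Grk3, a kinase that desensitizes G protein-coupled receptors, had 193, 136 and 190 CPM in the combination and 442, 436 and 466 CPM in Control (-1.37 ± 0.18, adjusted p = 0.0156). Stk10, a kinase of lymphocyte migration and the gene that stayed called in most leave-out fits (10 of 12), had 102, 97.0 and 79.2 CPM in the combination and 232, 174 and 229 CPM in Control (-1.19 ± 0.15, adjusted p = 0.0142). None of these genes had overlapping groups. The others were Zfyve9, an anchor of SMAD proteins in TGF-beta signalling (-1.61 ± 0.22), Lpar5, a lysophosphatidic acid receptor (-1.97 ± 0.38), Itpkb, an inositol trisphosphate kinase (-1.20 ± 0.24), Heg1 (-1.46 ± 0.29), Krt80 (-1.28 ± 0.20), Vmn1r38 (-1.99 ± 0.39) and 6430548M08Rik (-1.21 ± 0.22). Their adjusted p ran between 0.0156 and 0.0478. Of the 12 leave-out fits, Zfyve9, Tcf7l2 and Grk3 stayed called in 9, Krt80 and Mef2c in 8, Bcl6 in 7, Fkbp5 in 4 and 6430548M08Rik in 2. Lpar5, Heg1 and Vmn1r38 stayed called in 1 each, and Itpkb in 0.

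Rises outside the lists included Exoc3l4 (log2 fold change 2.77 ± 0.55, SE), Best1, a chloride channel gene (2.42 ± 0.47), C130026I21Rik (2.58 ± 0.51) and Csprs (2.45 ± 0.45), with edgeR adjusted p between 0.0372 and 0.0479. All 4 were low: Exoc3l4 had 6.72, 16.5 and 10.0 CPM in the combination and 1.46, 2.18 and 1.24 CPM in Control. They stayed called in 0 to 2 of the 12 leave-out fits. Fam71a was at 4.17, 5.69 and 8.09 CPM in the combination and at 0 in all Control libraries, which made it at least 188-fold higher when 3 counts over the Control group are taken as the floor (adjusted p = 0.0307). Its log2 fold change was 10.58 ± 1.62 (SE), and 2.9 ± 0.49 when TPM replaced counts.

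Markers of other cells moved with the groups. Mast cell and basophil genes stood higher in the combination, with 3 of 14 called (21.4%, against 0.774% of all genes tested), all 14 positive and a median log2 fold change of 1.73. The list summed to 1004, 834 and 1241 CPM in the combination and to 326, 372 and 351 CPM in Control, and Mcpt1, Mcpt2 and Mcpt4 were at 0 in Control. Mcpt8, the basophil protease, had 148, 78.8 and 137 CPM in the combination and 17.0, 24.0 and 19.9 CPM in Control (2.58 ± 0.51, SE; edgeR adjusted p = 0.0481). Cpa3, a carboxypeptidase of mast cell granules, had 57.5, 69.6 and 68.0 CPM in the combination and 8.48, 17.1 and 18.2 CPM in Control (2.16 ± 0.39, adjusted p = 0.0362). Fcer1a, the IgE-binding chain of the high-affinity IgE receptor, had 126, 70.9 and 122 CPM in the combination and 22.1, 39.6 and 26.1 CPM in Control (1.86 ± 0.34, adjusted p = 0.0367). The 3 genes stayed called in 3 or 4 of the 12 leave-out fits. Basophils and mast cells also transcribe Il6, Osm, Ccl3 and Ccl4, and the part of these cells in those rises was not tested.

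B cell and T cell markers stood lower in the combination. The B cell list summed to 218, 112 and 190 CPM in the combination and to 386, 349 and 413 CPM in Control, with all 10 tested members negative, a median of -1.89 and 1 called (10.0%, against 0.774% of all genes tested). That was Ms4a1, which encodes CD20, at 0.109, 0.373 and 0.357 CPM in the combination and 1.67, 5.44 and 4.59 CPM in Control (log2 fold change -3.79 ± 0.74, SE; edgeR adjusted p = 0.0470), and Pax5, Blk and Vpreb3 were at 0 in the combination. Ms4a1 stayed called in 1 of the 12 leave-out fits. The T cell list summed to 215, 153 and 256 CPM in the combination and to 312, 353 and 340 CPM in Control, with all 17 members negative and a median of -0.78. None of the 17 was called by edgeR, 4 had an unadjusted p below 0.05 and DESeq2 called 2. Bcl2, Bcl6, Mef2c, Pou2f2 and Stk10 are also transcribed in lymphocytes, and the part of these cells in their falls was not tested.

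Granulocyte markers split. The neutrophil list summed to 1148, 2090 and 3044 CPM in the combination and to 1719, 808 and 689 CPM in Control, with overlap, and Elane, the neutrophil elastase, was at 0 in Control. Its called member Retnlg, a resistin-like protein of neutrophils, went against the list: Retnlg had 10.7, 33.2 and 28.6 CPM in the combination and 218, 195 and 119 CPM in Control (log2 fold change -2.87 ± 0.46, SE; edgeR adjusted p = 0.0228), while 14 of 18 members had positive fold changes and the median was 1.25. Eosinophil markers summed to 107, 82.3 and 151 CPM in the combination and to 125, 165 and 84.6 CPM in Control. Prg2 and Prg3 were at 0 in the combination and under the CD40 agonist, and Epx was at 0 in these groups and in Control. None of their 9 tested members was called by edgeR, 4 had an unadjusted p below 0.05 and DESeq2 called 2.

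Melanocyte and melanoma markers were low in both groups and summed to 144, 32.6 and 77.4 CPM in the combination against 21.2, 20.6 and 25.6 CPM in Control, with all 9 tested members positive. Erythroid and platelet markers summed to 223, 334 and 50.9 CPM in the combination against 685, 703 and 489 CPM in Control. Dendritic cell markers summed to 3884, 474 and 3939 CPM in the combination against 2358, 2229 and 4150 CPM in Control, so combination replicate 2, the library with the most interferon-inducible GTPase and Ly6c2 transcripts, had the fewest dendritic cell transcripts of all 12 libraries. NK and cytotoxic cell markers summed to 1219, 1859 and 1454 CPM in the combination against 1032, 910 and 1209 CPM in Control. In these 4 lists 0 members were called by edgeR, 5, 5, 1 and 3 had an unadjusted p below 0.05, and DESeq2 called 3, 2, 0 and 0, in the order given. Fibroblast, endothelial and keratinocyte sums overlapped between the groups and were at most 158, 92.3 and 124 CPM in the combination, against 181, 108 and 86.4 CPM in Control.

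**Figure D4:**
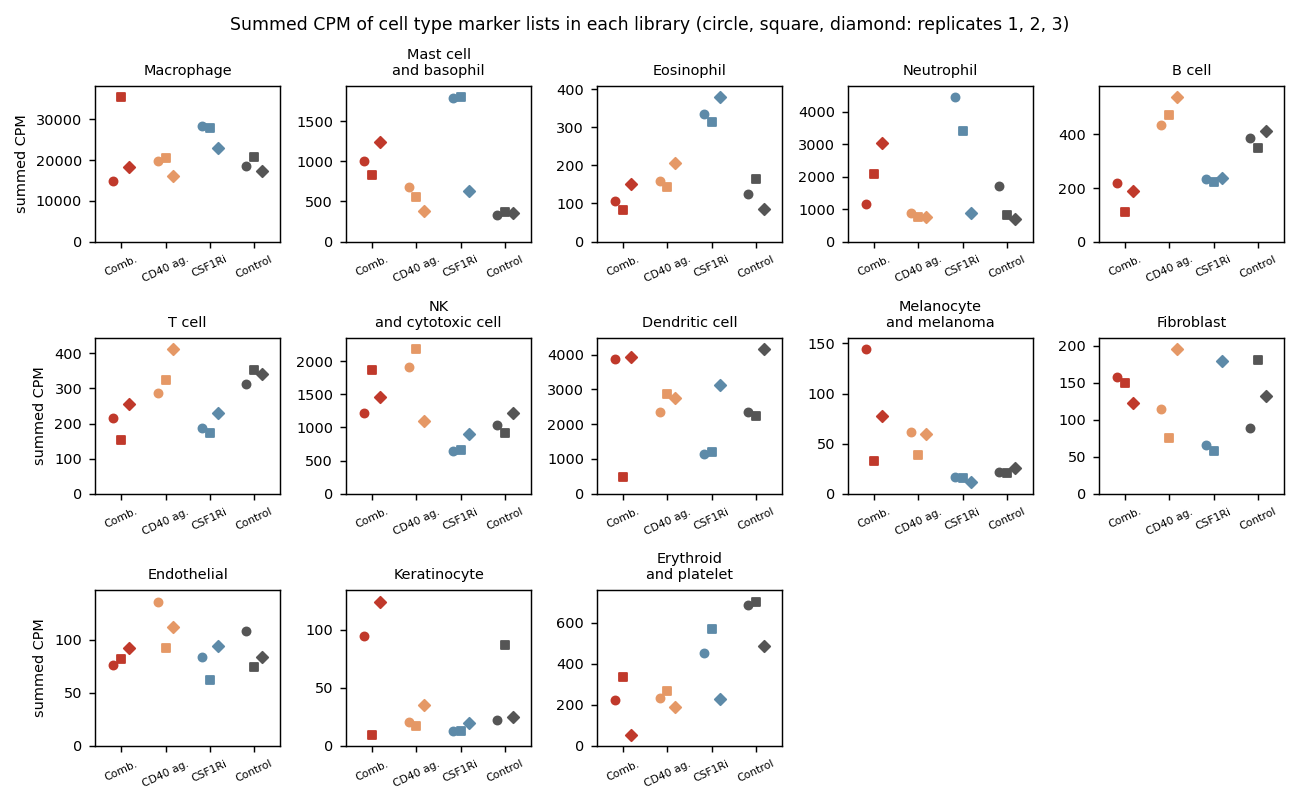
Summed CPM (vertical axis, from 0) of the 13 cell type marker lists in each library of the combination, CD40 agonist, CSF1Ri and Control groups; circles, squares and diamonds are replicates 1, 2 and 3. The mast cell and basophil sums of the combination, 834 to 1241 CPM, lie above the Control sums of 326 to 372 CPM, the B cell, T cell and erythroid sums lie below Control, and combination replicate 2 stands apart in the macrophage and dendritic cell panels.

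Cell cycle genes stood higher without passing the test. All 28 had positive fold changes with a median of 1.42. In 15 every combination value lay above every Control value, against 10.8% of all genes tested. None was called by edgeR, 11 had an unadjusted p below 0.05 and DESeq2 called 6. Mki67, the marker of dividing cells, had 66.3, 53.2 and 53.2 CPM in the combination and 28.2, 31.8 and 20.1 CPM in Control (log2 fold change 1.11 ± 0.25, SE; edgeR adjusted p = 0.0734), and Ccnb2, a mitotic cyclin, 46.2, 19.5 and 34.8 CPM in the combination and 8.17, 5.35 and 1.98 CPM in Control (2.70 ± 0.64, adjusted p = 0.0822). Melanocyte markers were also higher in the combination libraries, and their part in this was not tested. The lists of Toll-like receptor and inflammasome genes, Fc and phagocytic receptors, matrix remodelling genes, and lipid and lysosome genes held 0 calls among 35, 17, 28 and 34 members by edgeR, with 8, 2, 7 and 7 at an unadjusted p below 0.05 and 4, 1, 5 and 4 called by DESeq2, and medians of 0.23, -0.21, 0.46 and -0.05, of which the first turned to -0.13 without combination replicate 2 and to -0.09 when TPM replaced counts, and the fourth turned to 0.09 without combination replicate 2. Of the 13 mitochondrially encoded genes, 0 were called by edgeR or DESeq2, 1 had an unadjusted p below 0.05, and the median was 0.16, or -0.03 when TPM replaced counts.

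**Figure D5:**
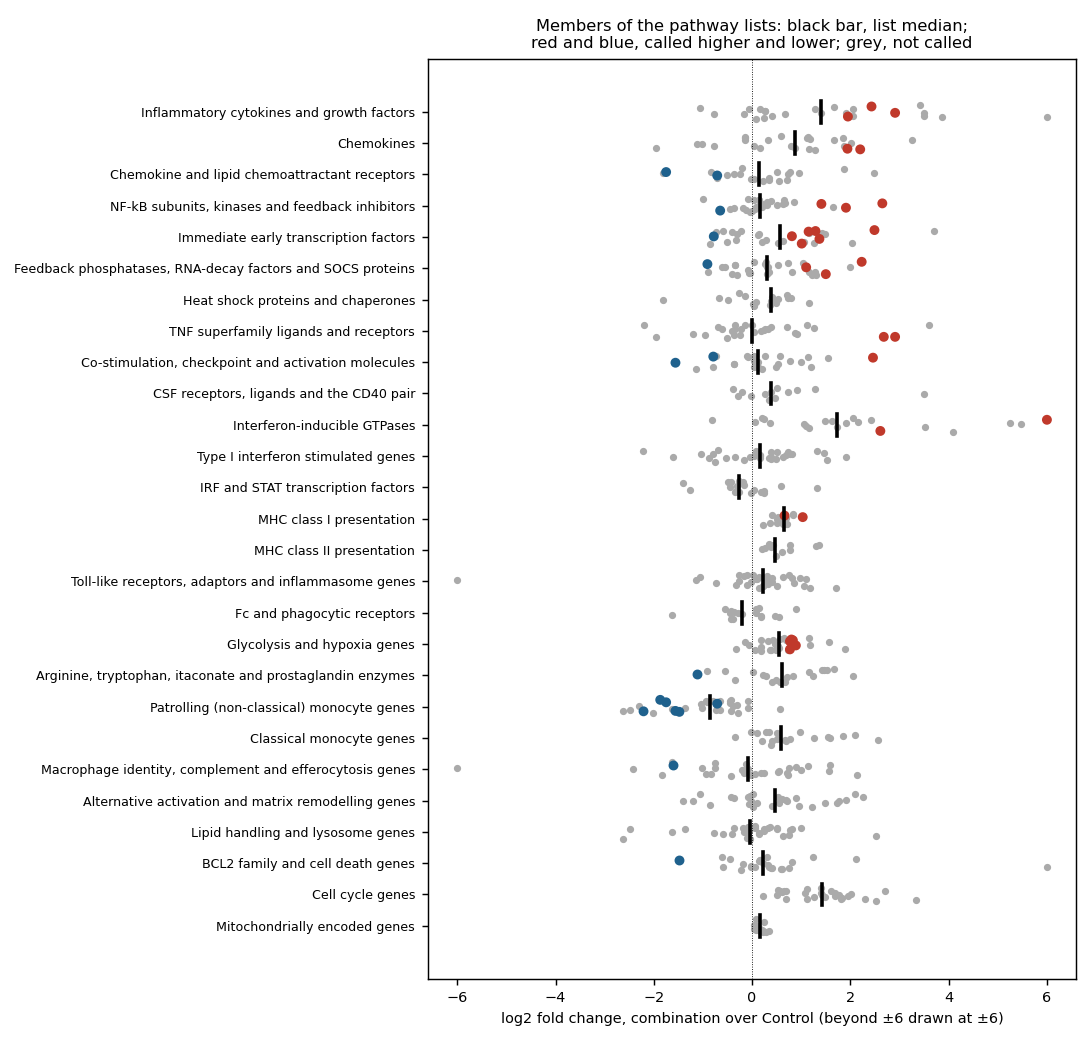
Log2 fold changes, combination over Control (horizontal axis), of the tested members of the 27 pathway lists, 1 point per gene, with the list median as a black bar and called genes in red (higher) or blue (lower). Cytokines, interferon-inducible GTPases and cell cycle genes have the highest medians (1.40, 1.72 and 1.42), and patrolling monocyte genes the lowest (-0.86).

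The single-agent groups place these differences beside each agent alone. The comparisons share libraries, so each is given with its own values. CSF1Ri replicate 3 stood apart from its group: its second component score was -32.7 while CSF1Ri replicates 1 and 2 had 22.2 and 24, its cytokine list summed to 1015 CPM against 5998 and 4984 CPM, and its neutrophil list to 882 CPM against 4443 and 3411 CPM. CD40 agonist over Control called 0 genes (0.0%) by edgeR, with 1231 at an unadjusted p below 0.05. CSF1Ri over Control called 2 (0.0125%), Gpld1 and Gm9973, both higher. The combination differed from CSF1Ri at 311 genes (1.94%), 199 higher and 112 lower, and from the CD40 agonist at 0 (0.0%), with 1450 at an unadjusted p below 0.05. Without CSF1Ri replicate 3, CSF1Ri over Control called 124 genes (81 higher and 43 lower), CD40 agonist over Control 7, the combination over CSF1Ri 293 and the combination over the CD40 agonist 0. Without combination replicate 2 the calls were 10 for CSF1Ri over Control, 5 for CD40 agonist over Control, 429 for the combination over CSF1Ri and 6 for the combination over the CD40 agonist. Without both libraries, CSF1Ri over Control called 338 genes and CD40 agonist over Control 38. The combination over CSF1Ri then called 632 and the combination over the CD40 agonist 8. In that fit CD40 agonist over Control called Tnf, Atf3 and Tnfaip3 (edgeR adjusted p = 0.0289, 0.0207 and 0.0304). CSF1Ri over Control called Osm, Il6, Tnfaip3 and Cd300e (0.00263, 0.0382, 0.028 and 0.00328), and neither called Dusp6 or Fkbp5.

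Means of the single-agent groups differed from gene to gene. Tnf averaged 168 CPM in the combination, 83.5 CPM under the CD40 agonist, 10.2 CPM under CSF1Ri and 22.3 CPM in Control, and the combination exceeded CSF1Ri by 4.04 ± 0.41 on the log2 scale (SE, edgeR adjusted p = 0.0066). Atf3 averaged 451 CPM in the combination, 290 CPM under the CD40 agonist, 95.7 CPM under CSF1Ri and 79.9 CPM in Control, with a combination over CSF1Ri difference of 2.24 (adjusted p = 0.0066). In these genes the CD40 agonist mean was the nearer to the combination. Osm averaged 376 CPM in the combination, 151 CPM under the CD40 agonist, 329 CPM under CSF1Ri and 69.6 CPM in Control, and Il6 averaged 51.9 CPM in the combination, 21.5 CPM under the CD40 agonist, 47.5 CPM under CSF1Ri and 13.4 CPM in Control. The combination over CSF1Ri differences of Osm (0.19) and Il6 (0.13) were not called (adjusted p = 0.841 and 0.871). The CSF1Ri mean of Osm came from 443, 417 and 127 CPM, with replicate 3 below the other two, and without that library the Osm difference was -0.18 ± 0.22 (adjusted p = 0.713). For Il6 the CSF1Ri libraries had 41.5, 56.1 and 44.9 CPM. Without CSF1Ri replicate 3 the combination over CSF1Ri differences of Tnf (3.84) and Atf3 (2.05) were still called (adjusted p = 0.00887 for both). Among the falls, Cd300e averaged 58.2 CPM in the combination, 151 CPM under the CD40 agonist, 44.2 CPM under CSF1Ri and 171 CPM in Control, whereas Dusp6 averaged 352 CPM in the combination, 488 CPM under the CD40 agonist, 683 CPM under CSF1Ri and 660 CPM in Control.

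Whether the combination departed from the sum of the single-agent changes was tested as an interaction on the log2 scale, (combination minus CSF1Ri) minus (CD40 agonist minus Control). No gene was called by edgeR (0.0%), 1305 had an unadjusted p below 0.05, the smallest adjusted p was 0.141, and DESeq2 called 240. Without CSF1Ri replicate 3 edgeR called 15. Tnf had an interaction of 2.14 ± 0.52 (SE, adjusted p = 0.334), Tnfaip3 of 0.34 (adjusted p = 0.918; -0.17 without CSF1Ri replicate 3 and combination replicate 2) and Fkbp5 of -2.23 ± 0.32 (adjusted p = 0.141). Tnf under CSF1Ri alone, at 11.1, 12.5 and 7.0 CPM, lay below all Control libraries, and Fkbp5 averaged 11.4 CPM in the combination, 26.5 CPM under the CD40 agonist, 54.8 CPM under CSF1Ri and 27.2 CPM in Control. These 2 genes were on opposite sides of Control under CSF1Ri with and without the antibody.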

How the data were processed

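RNA-seq was deposited as 1 file per library. Per the file headers, each lists for every transcript an estimated count and a TPM value made by the authors. The submitters' processing notes name STAR, HTSeq, DESeq2 and the mm10 build, whereas the deposited columns are those of a transcript quantifier, whose name and annotation no source used here gives. Libraries were made from 50 ng of RNA without strand information and read as paired 75-bp reads, so overlapping genes, antisense genes and near-identical copies cannot be told apart with certainty.

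Deposited estimated counts were summed per gene through GENCODE M21 names on GRCm38 (98.9% of 111462 transcripts matched, and 0.378% to 0.436% of counts were left out) and rounded. CPM are counts scaled by TMM library size to a total of 1e+06. Genes passing filterByExpr (16027 of 34989) were fitted with edgeR 4.0.16 (quasi-likelihood, robust, 8 residual degrees of freedom, R 4.3.3) over all 12 libraries with 1 term per group, and p-values were adjusted by Benjamini-Hochberg over all genes. The biological coefficient of variation was 61%. The procedure was tested on simulated data before use. Alternatives used DESeq2 1.42.0, limma 3.58.1 and the deposited TPM values as log2(TPM + 0.5).

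The groups compared, the gene lists and the tests were chosen with earlier results of these data known. The genes named are the 20 largest called rises and falls without overlap and with at least 5 CPM in the higher group, called list members, the targets, and, as examples, the 4 smallest p-values of lists with fewer than 4 calls; markers quoted for what they define (Cd68, Lyz2, Mertk, C1qa), and the genes of the closing observations, were added after values were seen. Some genes that meet these rules are not reported here.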

Additional observations from a re-analysis of the deposited data

How the results depend on the processing

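The 124 calls became 1099 with DESeq2, 282 with bias-adjusted edgeR, 233 with TPM, 232 without combination replicate 2 and CSF1Ri replicate 3 together, 59 with a replicate block and 5 with the 6 libraries alone, and ran between 0 and 154 when 1 library was left out. Counts of 97 to 145 came with other scaling, no filter, limma voom or no robust estimation (the last, like the single-agent comparisons without libraries that stand apart, added after the data were seen). With TPM, 83 genes were higher and 150 lower (35.6% higher, against 59.7%), and the median of all genes shifted by -0.15. The 0 interaction calls became 240 with DESeq2, 66 without both libraries, 6 with TPM, and 0 to 15 when 1 library was left out. Over all genes, replicate numbers gave no sign of pairing: same-numbered combination and Control libraries had deviations correlated at -0.00537, 0.0104 and 0.0266. A pairing that acts on part of the genes would not show in these values. The replicate block kept 55 of the 124 calls. Changes of sign were seen only in uncalled genes: Csf1r without combination replicate 1 (0.15) or 3 (0.09; -0.39 to 0.15 over the leave-out fits), Tie1 without Control replicate 2 (0.19; lowest -1.95) and Krt5 with voom (-1.28) or TPM (-0.0013). The cause of these differences was not tested. Where 1 library of a group was left out, its remaining libraries were assumed to vary like the other groups. With 3 libraries a group and a biological variation of 61%, small changes in single genes could be missed.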

Other observations

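The genes that follow were chosen after their values were seen, and no list of related genes was tested for them. Ubb, a polyubiquitin gene, had 5080, 5061 and 5057 CPM in the combination and 2998, 2776 and 2837 CPM in Control (log2 fold change 0.82 ± 0.09, SE; edgeR adjusted p = 0.0142). The proteasome subunits Psma5, Psma1 and Psmd12 were higher by 0.81 ± 0.12, 0.57 ± 0.11 and 0.72 ± 0.13 (adjusted p = 0.0196, 0.0378 and 0.0372). Ubb and Psma5 stayed called in 9 of the 12 fits that left out 1 library, and Psma1 and Psmd12 in 1.

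Among the falls was Ifngr1, the ligand-binding chain of the interferon gamma receptor, at 733, 749 and 712 CPM in the combination and 1104, 1198 and 1040 CPM in Control (-0.61 ± 0.09, adjusted p = 0.0186). Il17ra, a chain of the IL-17 receptor, had 57.9, 91.1 and 78.6 CPM in the combination and 168, 173 and 173 CPM in Control (-1.18 ± 0.17, adjusted p = 0.0196). Both stayed called in 9 of the 12 fits. Sat1, the enzyme that acetylates polyamines, had 2362, 1812 and 1917 CPM in the combination and 4177, 3296 and 3624 CPM in Control (-0.87 ± 0.13, adjusted p = 0.0200).

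Further single genes called higher were Tbxas1, Cfp and Cyp11a1. Tbxas1, the thromboxane synthase, had 52.4, 66.3 and 68.9 CPM in the combination and 25.6, 22.5 and 23.3 CPM in Control (1.39 ± 0.21, adjusted p = 0.0196). Cfp, which encodes the complement protein properdin, had 403, 442 and 475 CPM in the combination and 172, 181 and 164 CPM in Control (1.35 ± 0.25, adjusted p = 0.0390), and was among the 5 genes called with the 6 libraries alone. Cfp stayed called in 3 of the 12 leave-out fits. Cyp11a1, the enzyme that opens steroid synthesis, had 97.1, 88.0 and 157 CPM in the combination and 30.5, 39.4 and 25.9 CPM in Control (1.84 ± 0.29, adjusted p = 0.0223). It averaged 47.1 CPM under the CD40 agonist and 103 CPM under CSF1Ri, where the basophil gene Mcpt8 averaged 40.2 and 139 CPM. The part of basophils and mast cells in the Cyp11a1 rise was not tested.

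A few called genes were at 0 in a group. Adamdec1, a metalloprotease-like gene, was at 0 in the combination and at 5.62, 2.22 and 4.42 CPM in Control, at least 144-fold lower when 3 counts over the group are the floor, and it was also at 0 under the CD40 agonist. Under CSF1Ri it had 27.1, 7.38 and 26.2 CPM, above every Control library (log2 fold change of CSF1Ri over Control 2.31 ± 0.67, SE; edgeR adjusted p = 0.338). Gpld1 (2.07, 5.59 and 5.26 CPM in the combination) and Zfp438 (0.735, 4.1 and 5.67 CPM) were at 0 in Control. With the same floor they were at least 135-fold and 110-fold higher in the combination. Limma voom called none of Adamdec1, Gpld1 and Zfp438 (adjusted p = 0.0767, 0.0777 and 0.0868). Bias-adjusted edgeR called Zfp438 (adjusted p = 0.0193) but not Adamdec1 or Gpld1 (0.133 and 0.0993). In the 12 fits that left out 1 library, Adamdec1 stayed called in 8, Gpld1 in 9 and Zfp438 in 1.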
